A study of Mus musculus with 16 samples.

Results

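The 42 genes described here act in DNA replication and in mitosis. They were chosen by name from 22392 gene symbols in the count table, and fall into 22 genes of S phase and 20 genes of mitosis. The S-phase genes are Mcm2, Mcm3, Mcm4, Mcm5, Mcm6, Mcm7, Mcm10, Pcna, Rrm1, Rrm2, Tyms, Cdc6, Cdt1, Cdc45, Gins1, Gins2, Pola1, Pole, Rfc3, Ccne1, Ccne2 and E2f1. The mitotic genes are Ccna2, Ccnb1, Ccnb2, Cdk1, Cdc20, Plk1, Aurka, Aurkb, Bub1, Bub1b, Top2a, Mki67, Cenpa, Cenpe, Cenpf, Kif11, Kif20a, Tpx2, Birc5 and Foxm1. Each gene was read from the transcript with the largest sum of counts over all 16 libraries.

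RNA-seq and Ribo-seq, which sequences the mRNA fragments that ribosomes protect (footprints), were performed on Hepa1-6 cells, a mouse hepatoma line. The cells were WT or carried a homozygous deletion of exon 5 of Eef1d, which encodes a subunit of the translation elongation factor complex EEF1B. The study asked whether loss of this exon affects translation. Both assays came from the same lysates, with 2 replicates of each of the 4 lines. KO clones #1 and #2 (KO1 and KO2) were cut with guides S1 and S4 on the sides of the exon, and KO clone #3 (KO3) with guides S2 and S4. Each KO line is 1 single-cell clone, whereas no cloning is described for WT, and no treatment or synchronisation of the cell cycle is given for any line. A change therefore belongs to a clone, and the replicates of a line measure the spread within that line.

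DNA replication starts where the MCM helicase has been loaded onto origins by Cdc6 and Cdt1 and is activated by Cdc45 and the GINS proteins. Polymerases, the sliding clamp PCNA and its loader RFC then copy the strands, while ribonucleotide reductase and thymidylate synthase supply the nucleotides. E2F factors switch on these genes at the entry into S phase, and the genes of mitosis follow later under FOXM1 and B-MYB. Promoters of mitotic genes often hold elements named CHR (cell cycle homology region) and CCAAT boxes. In bulk samples, fewer cells in a phase and less RNA per cell cannot be told apart.

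The gene classes differed in their promoter letters. Promoter sequences (250 bases before to 50 bases after the start site, RefSeq, GRCm38.p6) were matched for 17 of the 22 S-phase and 15 of the 20 mitotic genes. Both strands were searched for E2F sites (TTTCCCGC, TTTGGCGC, TTTCGCGC or TTTGCCGC), for CHR letters (TTTGAA or TTTAAA) and for CCAAT. A gene was counted where any of its promoters held the letters. An E2F site was found for 8 of the 17 S-phase genes (47.1%), 1 of the 15 mitotic genes (6.67%) and 2.6% of 27025 gene symbols. CHR letters were found for 5 S-phase genes (29.4%), 14 mitotic genes (93.3%) and 30.6% of all gene symbols. For TTTGAA alone the shares were 11.8%, 73.3% and 20.2%, and for CCAAT 70.6%, 93.3% and 41.1%. These matches describe letters, and no binding was measured.

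Windows are shown for 4 S-phase and 6 mitotic promoters because they hold the letters that set the classes apart. They leave out other letters of these promoters. Cdk1 was the 1 mitotic gene with an E2F site (TTTCGCGC), and Mcm5 also held CHR letters (TTTAAA), both outside the windows. All windows lie upstream of the RefSeq start site used and are written from 5′ to 3′ on the strand of the gene. By the outermost bounds of each gene on GRCm38, the Mcm7 and Cdc6 windows lie inside the gene. The Cdk1, Ccnb1 and Cdc20 windows lie partly inside it, so other start sites would place them differently. Capitals mark E2F letters in the first 4 windows, and CHR and CCAAT letters (or their complements, TTCAAA and ATTGG) in the other 6.
Mcm6, chr1:128359733-128359827, minus strand: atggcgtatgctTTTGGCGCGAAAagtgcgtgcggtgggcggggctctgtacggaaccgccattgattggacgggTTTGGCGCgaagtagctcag
Mcm5, chr8:75109344-75109378, plus strand: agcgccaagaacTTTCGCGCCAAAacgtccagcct
Mcm7, chr5:138172029-138172060, minus strand: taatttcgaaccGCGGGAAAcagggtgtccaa
Cdc6, chr11:98908001-98908032, plus strand: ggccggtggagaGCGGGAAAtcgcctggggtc
Cdk1, chr10:69352916-69353004, minus strand: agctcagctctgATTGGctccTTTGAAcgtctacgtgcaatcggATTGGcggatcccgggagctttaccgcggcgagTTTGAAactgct
Ccnb1, chr13:100786511-100786597, minus strand: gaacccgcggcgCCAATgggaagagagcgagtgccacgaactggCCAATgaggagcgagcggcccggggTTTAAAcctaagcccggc
Mki67, chr7:135716460-135716557, minus strand: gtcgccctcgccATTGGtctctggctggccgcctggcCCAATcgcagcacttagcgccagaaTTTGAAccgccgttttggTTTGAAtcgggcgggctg
Top2a, chr11:99024195-99024299, minus strand: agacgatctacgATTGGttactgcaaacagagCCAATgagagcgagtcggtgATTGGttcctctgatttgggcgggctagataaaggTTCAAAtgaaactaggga
Cdc20, chr4:118437344-118437408, minus strand: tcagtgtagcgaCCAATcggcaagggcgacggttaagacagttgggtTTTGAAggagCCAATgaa
Kif11, chr19:37376325-37376380, plus strand: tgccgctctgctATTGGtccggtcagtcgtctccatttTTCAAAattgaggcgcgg

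All 42 genes were well measured. With 1 transcript per gene, RNA-seq libraries held 10493028 to 12946823 counts and Ribo-seq libraries 1138943 to 4886754, the KO1 Ribo-seq replicates being the largest and the smallest. The lowest RNA-seq count of a member in any library was 250, and the lowest footprint count was 32. All 42 passed the filter on low counts in every fit. Of 10 hepatocyte markers, 9 in WT and 7 in each clone had at least 10 RNA-seq counts in a library. Their summed RNA level was 1180 to 1260 in WT, 465 to 467 in KO1, 914 to 989 in KO2 and, in KO3, 1730 to 1830. The markers did not move together, since in KO3 the CPM of Alb (1751 and 1872, against 786 and 744 in WT) and Afp was higher and that of Trf, Apob and Hnf4a lower than in WT, and Apoa1, Ttr and Serpina1a were at 1.28 or less in every RNA-seq library. The sum of 5 fibroblast markers was 814 to 856 in WT and 640 to 951 in the clones, nearly all from Dcn. The muscle factors Myod1, Myf5 and Myog were at 0 in all RNA-seq libraries, and leukocyte and endothelial markers summed to at most 6.26 and 1.03. The part of these differences in the results was not tested. Eef1d RNA did not pass the test in KO1 (-0.08 on the log2 scale) or KO2 (0.10), and fell in KO3 (-0.53 ± 0.062, edgeR adjusted p = 1.23e-11). Its footprints fell in KO1 (-0.32 ± 0.077, edgeR adjusted p = 0.00104) and KO3 (-0.66 ± 0.075, 1.03e-09), with 0.066 in KO2. These counts cover the whole coding sequence of 1 transcript, so they are no check of the exon 5 deletion.

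In WT cells, the genes spanned a wide range of levels. Levels are given as counts per codon, scaled to the same sum in every library, which allows genes to be compared. The RNA level of S-phase genes ran from 8.83 for Pole, the catalytic subunit of DNA polymerase epsilon, to 289 for Pcna, with a median of 64.7. Mitotic genes ran from 19.6 to 273, the highest being Cdk1, the kinase that drives entry into mitosis, with a median of 85.3. The median footprint levels were 61.4 for S-phase and 69.0 for mitotic genes.

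Translation efficiency (TE), the footprint level divided by the RNA level of the same replicate, differed several-fold among the genes. Median TE in WT was 0.984 for S-phase and 0.844 for mitotic genes, against 0.739 over 9634 genes. Of the S-phase genes 17 of 22, and of the mitotic genes 14 of 20, lay above that median. Cdk1 had the highest TE, with 1.66 in both replicates. It was followed by Mcm4 (1.44), Rrm2 (1.43), Rrm1 (1.43), Pcna (1.42) and Tyms (1.41), whose replicates overlapped. The lowest values belonged to Foxm1 (0.261), E2f1 (0.273) and Mki67 (0.33). Foxm1 and E2f1, transcription factors of the mitotic and of the S-phase programme, thus stood together at the low end, and their replicates overlapped. Across the 42 genes TE fell with the number of counted codons (Pearson's r = -0.302, Spearman's rho = -0.281), as it did across all genes (r = -0.407). Within the classes r was -0.114 for S-phase genes (rho = -0.159) and -0.409 for mitotic genes (rho = -0.341). This is a description over genes, which share the libraries. 

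**Figure D1:**
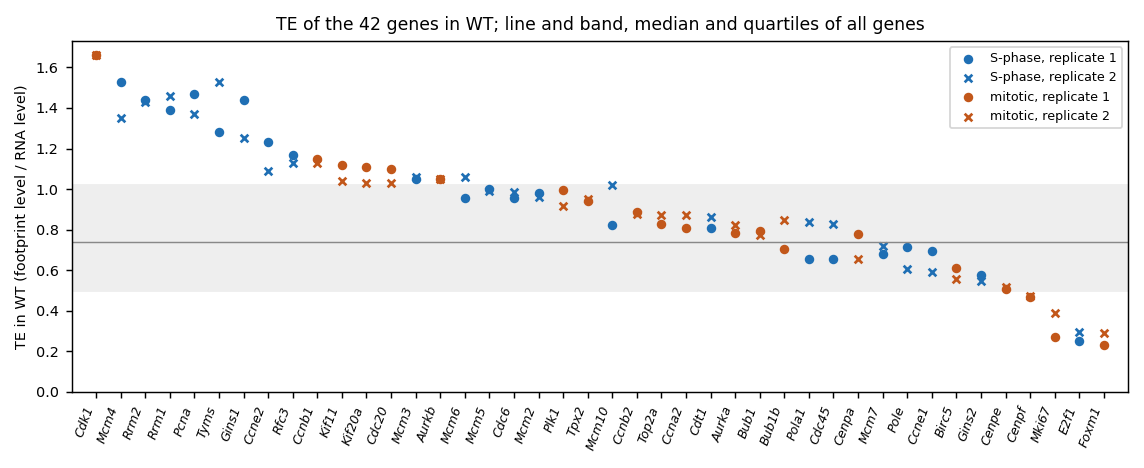
TE of the 42 genes in WT cells, in order of the mean of 2 replicates (circles, replicate 1; crosses, replicate 2; blue, S-phase; orange, mitotic). The line and band show the median (0.739) and the quartiles (0.499 and 1.02) of 9634 genes, and Cdk1 (1.66) stands above the other genes, while Mki67, E2f1 and Foxm1 lie at 0.33 or below.

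The subunits of the MCM helicase, which form a ring with 1 copy of each, were closer to each other in footprints than in RNA. In WT, RNA levels ran from 42.9 for Mcm4 to 204 for Mcm7, a ratio of 4.77, and footprint levels from 61.6 to 143, a ratio of 2.32. Mcm4 had the highest TE of the 6 subunits (1.53 and 1.35) and Mcm7 the lowest (0.678 and 0.719), and the replicates did not overlap. The same held in each clone. For KO1, KO2 and KO3 the RNA ratio was 6.34, 3.84 and 7.47, against footprint ratios of 2.71, 2.68 and 2.92. These ratios are per line and were not tested.

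RNA of the 42 genes was then compared between each clone and WT. Values in libraries are CPM (library-size-scaled counts, with TMM factors), changes are log2 changes ± SE over 2 against 2 libraries, and a change was called where the Benjamini-Hochberg adjusted p of edgeR's quasi-likelihood test over all genes was under 0.05. In KO1, 19 of the 42 genes were called higher (45.2%) and 7 lower (16.7%), where 22.1% and 24.6% of 11515 genes tested were called. In KO2, 9 were higher and 3 lower (21.4% and 7.14%), against 11.6% and 8.86% of all genes. In KO3, 14 were higher and 9 lower (33.3% and 21.4%), against 23.1% and 22.3%. Genes with many counts are called more often. Among 6020 genes with at least 250 counts in every RNA-seq library, 25.7%, 13.6% and 28.0% were higher and 28.0%, 10.2% and 24.2% lower in KO1, KO2 and KO3. The KO2 and KO3 counts depended on single libraries. Without WT replicate 1, 5 genes were higher in KO2 and 9 in KO3. KO3 also had 9 higher without its replicate 1 and 5 lower without its replicate 2. KO2 had 1 lower without either WT replicate and 6 without its replicate 1.

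S-phase and mitotic genes were set side by side, without a test between the lists. In KO1, 9 S-phase genes were higher and 4 lower, and 10 mitotic genes were higher and 3 lower. In KO2 these counts were 5 and 2 for S-phase and 4 and 1 for mitotic genes. In KO3 they were 8 and 6 for S-phase and 6 and 3 for mitotic genes. Median log2 changes of the S-phase genes were 0.15, 0.046 and 0.058 in KO1, KO2 and KO3, and those of the mitotic genes 0.16, 0.051 and 0.067, with a median of 0.00 over all genes in each clone. Leaving out 1 library at a time, the S-phase medians were 0.087 to 0.19, -0.012 to 0.093 and -0.025 to 0.12, and the mitotic medians 0.13 to 0.19, 0.025 to 0.071 and 0.027 to 0.11. The S-phase median was below 0 in KO2 without KO2 replicate 1 and in KO3 without KO3 replicate 1, and the lowest mitotic medians were those without WT replicate 1. The median size of a change, whatever its sign, was 0.20, 0.12 and 0.20 over the 42 genes, against 0.26, 0.16 and 0.24 over all genes tested and 0.20, 0.12 and 0.19 over those with at least 250 counts. The 42 genes took 0.672% and 0.686% of the RNA-seq counts in the WT replicates, 0.773% and 0.761% in KO1, 0.731% and 0.708% in KO2 and, in KO3, 0.687% and 0.659%. KO1 and KO2 thus lay above WT in both replicates, and KO3 overlapped it.

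**Figure D2:**
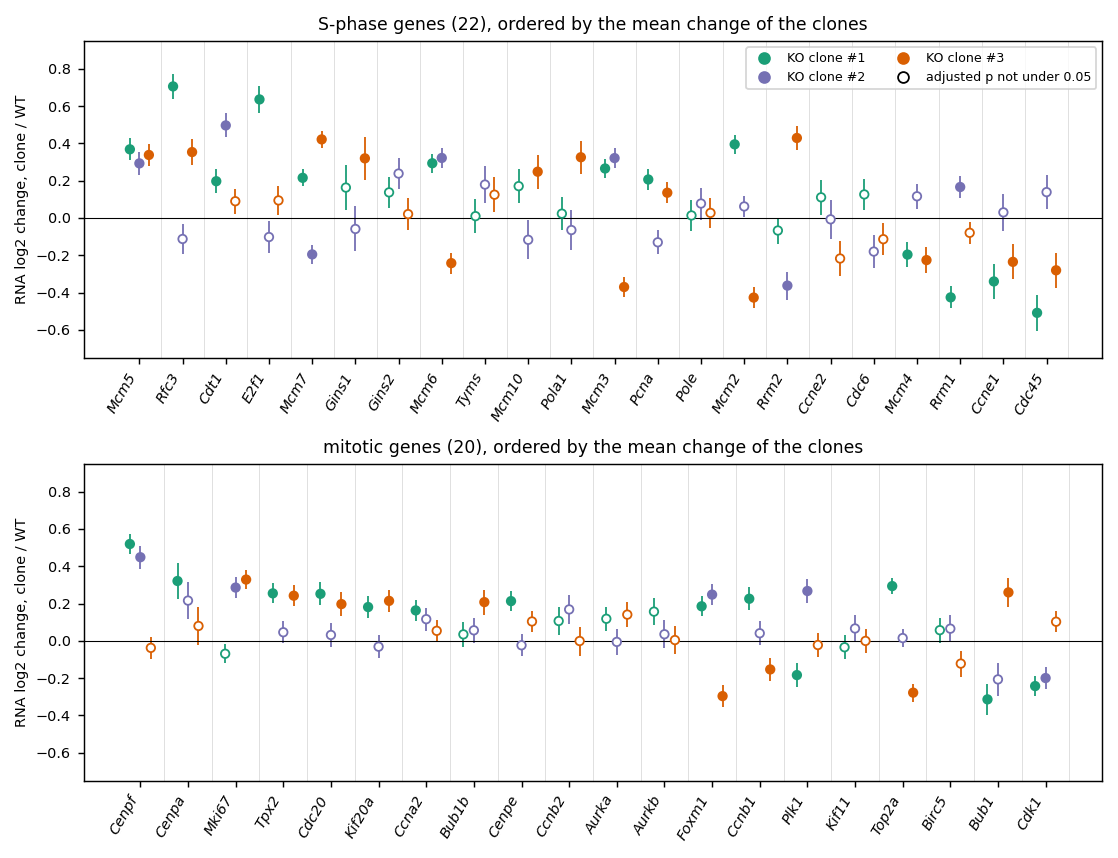
RNA log2 change of each S-phase gene (top) and mitotic gene (bottom) in KO1, KO2 and KO3 against WT, with the SE of 2 against 2 libraries as bars and filled points where the adjusted p was under 0.05. Mcm5 was above 0 and filled in all 3 clones, whereas Mcm2, Mcm3, Rrm2, Top2a and Foxm1 have filled points on both sides of 0.

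Few of these changes were called in every clone, as was so for all genes. Only Mcm5 was called higher in all 3 clones and none of the 42 was called lower in all 3, against 0.807% and 0.886% of 11281 genes tested in each clone. In opposite directions in different clones 11 genes were called (26.2%), against 20.1% of those genes, and in no clone 10 (23.8%), against 28.6%. Among the 6020 genes with at least 250 counts these shares were 24.8% and 19.4%, so the members were near the background. The test that the 3 clones have the same change called 32 of the 42 genes (76.2%; 18 S-phase and 14 mitotic), against 74.0% of 11756 genes, so this share was near that of all genes. For the mean change of the clones, 9 genes were called higher and 1 lower (21.4% and 2.38%), against 7.17% and 11.7% of all genes. Among the 6020 genes with at least 250 counts, 10.4% were higher and 11.9% lower. The members called were Mcm5, Mcm7, Cdt1, Rfc3, E2f1, Cdc20, Mki67, Cenpf and Tpx2, and lower Cdc45. The p of this test rests on the spread between libraries of a line and does not measure the spread between clones. All of these genes but Mcm5 were also called as different among the clones. Mcm7 was called lower in KO2 (-0.20), and E2f1 was called only in KO1 (0.64). Without WT replicate 1 or without WT replicate 2, 5 genes were higher on average. Cdc45 did not pass without either WT replicate, KO1 replicate 2 or either KO3 replicate.

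Among the MCM subunits, Mcm5 rose in every clone and others diverged. Mcm5 had an RNA CPM of 167 and 162 in WT, 222 and 203 in KO1, 196 and 204 in KO2 and, in KO3, 214 and 199. Every clone library lay above the WT libraries, with a mean change of 0.33 ± 0.053 (adjusted p = 9.79e-06), and the clones did not pass the test of a difference (adjusted p = 0.498). Its call in each clone held under every alternative tried. Mcm5 lies on chromosome 8, whose other genes had median RNA changes of -0.025, 0.26 and 0.22 in KO1, KO2 and KO3. Relative to them, Mcm5 changed by 0.39, 0.030 and 0.12, and the part of the chromosome in its calls was not tested. Mcm2 (chr6:88883474-88898780) had an RNA CPM of 270.1 and 269 in WT, 364 and 346 in KO1, 276 and 284 in KO2 and, in KO3, 202 and 196. It was higher than WT in both KO1 libraries and lower in both KO3 libraries. The change was 0.39 ± 0.051 in KO1 (adjusted p = 4.1e-09), 0.061 ± 0.055 in KO2 (adjusted p = 0.49) and -0.43 ± 0.056 in KO3 (adjusted p = 7.11e-10), and differed among the clones (adjusted p = 2.32e-14). Mcm3 and Mcm6 rose in KO1 and KO2 and fell in KO3, with changes of 0.27 (KO1), 0.32 (KO2) and -0.37 (KO3) for Mcm3. Mcm7 rose in KO1 (0.21) and KO3 (0.42) and fell in KO2 (-0.20). Mcm4 fell in KO1 (-0.20) and KO3 (-0.23). No clone thus moved the whole helicase in 1 direction.

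Loading and activation factors of the origin also differed. Cdt1, which loads the helicase together with Cdc6, had an RNA CPM of 133 and 125 in WT, 154 and 142 in KO1, 184 and 179 in KO2 and, in KO3, 143 and 129.7. All KO1 and KO2 libraries lay above WT. Cdt1 rose by 0.50 ± 0.064 in KO2 (adjusted p = 4.89e-06) and 0.20 ± 0.064 in KO1 (adjusted p = 0.00968). The KO1 call was lost without WT replicate 2 (edgeR adjusted p = 0.171), without KO1 replicate 1 (0.153) and with DESeq2 (0.0566). Cdc45, which joins the MCM ring to make the active helicase, had an RNA CPM of 50.4 and 46.5 in WT, 36.5 and 31.6 in KO1, 51.4 and 54.6 in KO2 and, in KO3, 40.5 and 38.7. Both KO1 and both KO3 libraries lay below WT. Its change was -0.51 ± 0.10 in KO1 (adjusted p = 2.09e-05) and -0.28 ± 0.094 in KO3 (adjusted p = 0.0101), whereas its change in KO2 was 0.14. The KO3 call was lost without WT replicate 1 (edgeR adjusted p = 0.15), without KO3 replicate 2 (0.0653) and with DESeq2 (0.0702). Of the other 4 factors, Gins1 and Mcm10 rose in KO3 (0.32 and 0.25), and Gins2 and Cdc6 were called in no clone. 

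At the fork, Rfc3, a subunit of the clamp loader, had an RNA CPM of 90.6 and 93.7 in WT, 154 and 147 in KO1, 91.8 and 78 in KO2 and, in KO3, 126 and 108. The KO1 and KO3 libraries lay above WT. Its change of 0.71 ± 0.066 in KO1 (adjusted p = 3.25e-13) was the highest of the 42 genes in that clone, and it was -0.11 in KO2 and 0.35 in KO3. Pcna rose in KO1 (0.21) and KO3 (0.14). Pola1, the primase-associated polymerase, rose in KO3 (0.33), and Pole was called in none, with changes of 0.013 (KO1), 0.077 (KO2) and 0.027 (KO3).

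Among the genes of nucleotide supply, the ribonucleotide reductase subunits moved apart. Rrm2, the small subunit, whose level limits the enzyme through the cell cycle, had an RNA CPM of 122 and 119.8 in WT, 125 and 106 in KO1, 99.8 and 87.7 in KO2 and, in KO3, 174 and 149. It had the lowest S-phase change in KO2 (-0.36 ± 0.075, adjusted p = 0.00107 by edgeR) and the highest in KO3 (0.43 ± 0.066, adjusted p = 7.3e-08 by edgeR). Rrm1, the large subunit, changed by -0.43 (KO1), 0.17 (KO2) and -0.08 (KO3), and was called in KO1 and KO2. Tyms was called in no clone. Of the regulators of S-phase entry, E2f1 rose in KO1 (0.64) and was not called in KO2 (-0.10) or KO3 (0.094). Ccne1 fell in KO1 (-0.34) and KO3 (-0.24), and Ccne2 was called in none.

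The mitotic cyclins and Cdk1 had called changes of 0.24 or less in size. Ccnb1, the cyclin that pairs with Cdk1, had an RNA CPM of 153 and 152 in WT, 188 and 169 in KO1, 162 and 150.5 in KO2 and, in KO3, 141 and 132. Its change was 0.23 ± 0.061 in KO1 (adjusted p = 0.00191) and -0.15 ± 0.064 in KO3 (adjusted p = 0.0429). The KO1 call was lost without KO1 replicate 1 (0.0918), and the KO3 call was lost with DESeq2 (0.11), with no filter on low counts (0.0541), with all lines in a single fit (0.0693) and without WT replicate 1 (0.191), WT replicate 2 (0.154) or KO3 replicate 2 (0.249), as adjusted p-values. Cdk1 fell in KO1 (-0.24) and KO2 (-0.20), Ccna2 rose in KO1 (0.16), and Ccnb2 was not called. 

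Of the mitotic kinases and checkpoint genes, Bub1, which holds the spindle checkpoint at kinetochores, had an RNA CPM of 65.5 and 66.6 in WT, 50.4 and 56.2 in KO1, 60.2 and 53.8 in KO2 and, in KO3, 81.7 and 75.4. KO3 libraries lay above and KO1 and KO2 libraries below WT. The change was -0.31 ± 0.083 in KO1 (adjusted p = 0.00158), -0.21 ± 0.088 in KO2 (adjusted p = 0.103) and 0.26 ± 0.079 in KO3 (adjusted p = 0.00477). The KO1 call was lost without KO1 replicate 1 (0.051), and the KO3 call without WT replicate 1 (0.0525) or KO3 replicate 1 (0.0735), as edgeR adjusted p-values. Its partner Bub1b rose in KO3 (0.21). Cdc20, the activator of the anaphase-promoting complex, rose in KO1 (0.25) and KO3 (0.20). Plk1 fell in KO1 (-0.18) and rose in KO2 (0.27), and the Aurora kinases Aurka and Aurkb were called in none.

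At the centromere and spindle, Cenpf, a kinetochore protein of late S phase and mitosis, had an RNA CPM of 211 and 239.8 in WT, 318 and 329.8 in KO1, 313 and 300.4 in KO2 and, in KO3, 217 and 220.1. KO1 and KO2 libraries lay above WT, and KO3 overlapped it. Cenpf had the highest mitotic change in KO1 (0.52 ± 0.055, edgeR adjusted p = 1.69e-11) and KO2 (0.45 ± 0.062, 1.24e-05), against -0.037 in KO3. Cenpa, the histone H3 variant of centromeres, had an RNA CPM of 34.5 and 36.2 in WT, 44 and 44.5 in KO1, 40.5 and 41.2 in KO2 and, in KO3, 34.8 and 39.5. It rose in KO1 (0.32 ± 0.10, edgeR adjusted p = 0.00508), which was lost without WT replicate 1 (0.0713). Cenpe rose in KO1 (0.21). The spindle factors Tpx2 and Kif20a rose in KO1 (0.25 and 0.18) and KO3 (0.24 and 0.21), and the motor Kif11 and the Aurora partner Birc5 were called in none.

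Of the remaining mitotic genes, Mki67, the proliferation antigen that coats mitotic chromosomes, had an RNA CPM of 355 and 388 in WT, 344 and 366 in KO1, 454 and 448 in KO2 and, in KO3, 470.1 and 458. KO2 and KO3 libraries lay above WT and KO1 overlapped it, with changes of 0.29 ± 0.055 in KO2 (adjusted p = 0.000523) and 0.33 ± 0.051 in KO3 (adjusted p = 5.95e-08). The KO2 call was lost without WT replicate 1 (edgeR adjusted p = 0.0563). Foxm1, a transcription factor of the mitotic genes, had an RNA CPM of 232 and 235 in WT, 262 and 270.0 in KO1, 268 and 283 in KO2 and, in KO3, 182 and 196. It rose in KO1 (0.19) and KO2 (0.25) and had the lowest mitotic change in KO3 (-0.30 ± 0.058, edgeR adjusted p = 1.52e-05). The KO1 and KO2 calls were lost without WT replicate 1 (0.0685 and 0.0571). Top2a, the topoisomerase that untangles sister chromatids, rose in KO1 (0.29) and fell in KO3 (-0.28).

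**Figure D3:**
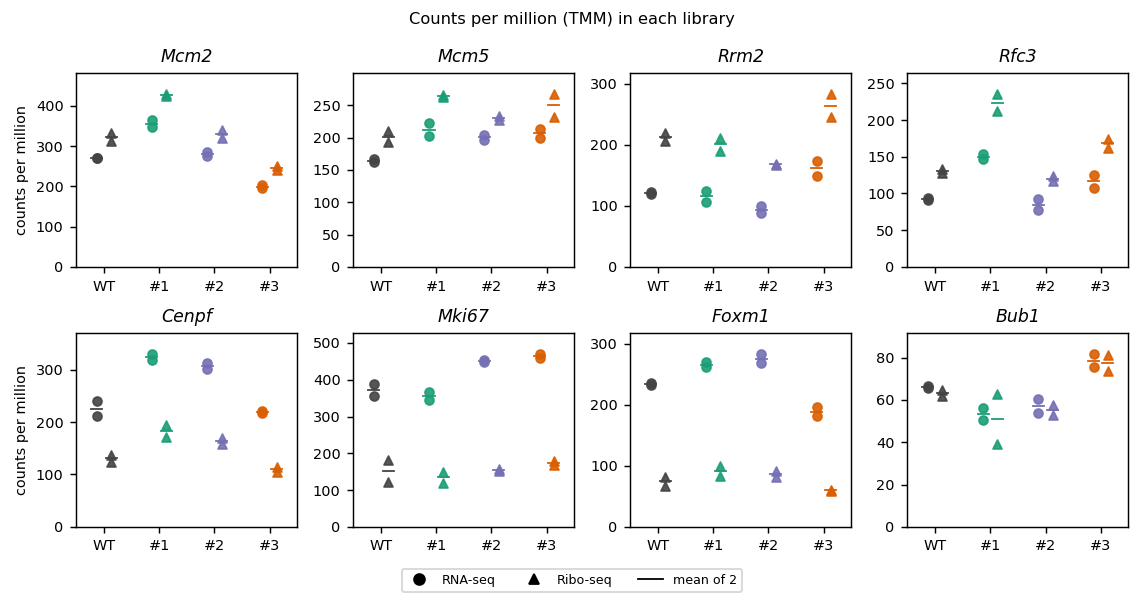
CPM of 8 of the genes in each library (circles, RNA-seq; triangles, Ribo-seq; short lines, mean of 2 replicates; axes start at 0), for WT and KO clones #1 to #3. In both assays Mcm2 is highest in KO1 (364 and 346 in RNA-seq) and lowest in KO3 (202 and 196).

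On the chromosomes whose genes moved most in a clone, most members moved with their chromosome. Chromosomes were taken from the GENCODE vM21 annotation of GRCm38, and this comparison was chosen after the data were seen. In KO1, the median RNA change over all genes of a chromosome was -0.44 for chromosome 7 (864 genes), -0.36 for chromosome 9 (640 genes) and -0.33 for chromosome 16 (354 genes). Of the 7 members on them (Rrm1, Ccne1, Plk1, Mki67, Ccnb2, Mcm4 and Cdc45), 6 were below 0, and 5 were called lower, of 7 called lower in that clone. In KO2, chromosome 1 stood at 0.28, chromosome 8 at 0.26 and chromosome 10 at -0.26. All 7 members on them (Mcm3, Mcm6, Cenpf, Mcm5, Cdt1, Gins2 and Cdk1) had the sign of their chromosome, and 6 were called. In KO3, chromosome 12 stood at 0.33, chromosome 18 at 0.32 and chromosome 6 at -0.32. The 4 members on them had the sign of their chromosome and were called (Rrm2 and Kif20a higher, Mcm2 and Foxm1 lower). By its median, more genes of such a chromosome share its sign than not. The shares of all its genes with that sign or called were not computed. These counts thus place the members and set them apart from no other genes of the chromosome.

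Over the 42 genes, Pearson's r between the RNA change of a gene and the median change of the other genes on its chromosome was 0.611 (KO1), 0.793 (KO2) and 0.535 (KO3). The genes lie on 17 chromosomes and share their libraries, so r is a description. The footprint medians of these chromosomes were of like size (-0.43, -0.35 and -0.32 in KO1 for chromosomes 7, 9 and 16). Taken relative to the other genes of the chromosome, the median change was 0.11, 0.011 and -0.0595 for S-phase and 0.13, 0.098 and 0.047 for mitotic genes in KO1, KO2 and KO3. Without the 3 chromosomes named for each clone, 2 genes were lower in KO1 and 4 higher in KO2, against 7 and 9 with them. All 19 genes called higher in KO1 lie on other chromosomes. In KO3, only the 4 called genes named above lie on its 3 chromosomes. Shares of all genes called off these chromosomes were not computed. DNA of the clones was not analysed here, and the part of chromosome-wide differences in each call was not tested.

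**Figure D4:**
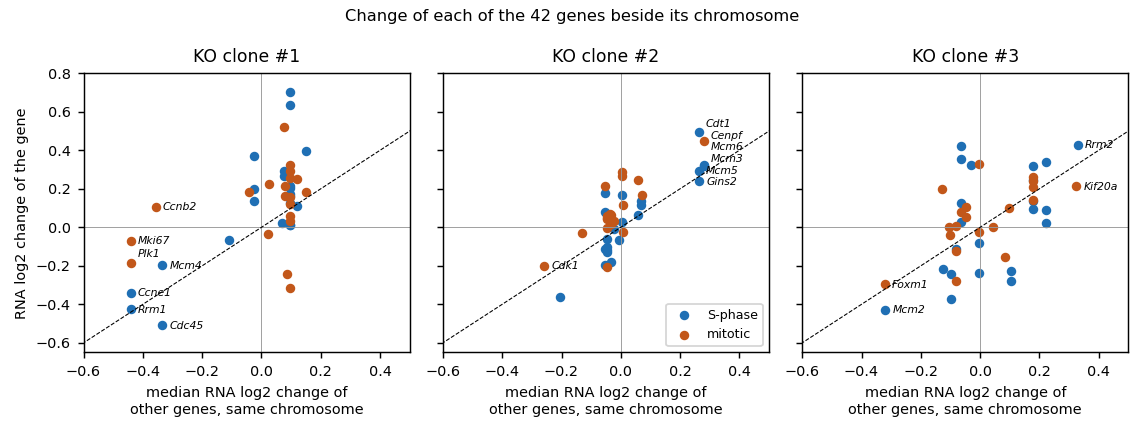
RNA log2 change of each of the 42 genes (vertical axis) against the median RNA log2 change of the other genes on its chromosome (horizontal axis), in each clone (blue, S-phase; orange, mitotic; dashed line, equal values). Named genes lie on chromosomes whose median is beyond 0.25 in size, and all but Ccnb2 in KO1 have the sign of their chromosome.

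Footprints followed RNA. Of the 42 genes, 16 were called higher and 1 lower in KO1, where 11.7% and 15.2% of 10335 genes were called. In KO2, 6 were higher and 1 lower, against 6.74% and 4.99%, and in KO3 12 were higher and 7 lower, against 14.9% and 15.7%. As shares of the 42 these are 38.1%, 14.3% and 28.6% higher and 2.38%, 2.38% and 16.7% lower. Among 5446 genes with at least 32 counts in every Ribo-seq library, 15.4%, 8.74% and 17.6% were higher and 17.2%, 6.61% and 19.8% lower in KO1, KO2 and KO3. In KO1, 8 S-phase and 8 mitotic genes were higher, in KO2 4 and 2, and in KO3 9 and 3. Lower were 1 and 0, 1 and 0, and 4 and 3. The 1 gene lower in KO1 was Rrm1 (-0.35 ± 0.074). Median footprint changes were 0.17, 0.044 and 0.0039 for S-phase and 0.18, 0.058 and 0.016 for mitotic genes. The sign turned for S-phase genes in KO2 without KO2 replicate 1 (-0.015) and in KO3 without WT replicate 2 (-0.0093), and for mitotic genes in KO3 without WT replicate 1 (-0.035). Without KO1 replicate 1 the S-phase median in KO1 was 0.048. All genes called in both assays (15, 5 and 15) had the same sign in both. Pearson's r between RNA and footprint change over the 42 genes was 0.853, 0.741 and 0.803, where both changes come from the same lysates.

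These footprint counts were less stable than those of RNA. Without WT replicate 1, 9, 2 and 6 genes were higher in KO1, KO2 and KO3. Without WT replicate 2, 9 were higher in KO1 and 7 in KO3. Without replicate 1 of the clone itself, 10, 2 and 2 were higher. With DESeq2, 6, 1 and 2 were higher and 1, 0 and 3 lower. Differences among the clones were called for 31 of the 42 genes (73.8%), against 59.5% of 10763 genes. That background holds genes with fewer counts, which are called less often, and no share at matched counts was computed for this test. For the mean of the clones, Mcm5, Rfc3 and Cdc20 were higher and 0 lower by edgeR (7.14% and 0%), against 2.99% and 6.25% of all genes. Among the 5446 genes with at least 32 counts, 4.7% were higher and 6.61% lower. Of the 42 members, 11 had an unadjusted p under 0.05. DESeq2 called 2 higher and 0 lower. By edgeR, Rfc3 and Cdc20 were also called as different among the clones. For the mean, 7 were higher and 1 lower with the replicate number as a block, and 6 were higher without KO1 replicate 2. With this block 2 genes were lower in KO1 and 2 in KO2.

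Among single genes, Mcm2 had a Ribo-seq CPM of 331 and 312 in WT, 429 and 423 in KO1, 340.1 and 320.1 in KO2 and, in KO3, 251 and 241. As in RNA, KO1 lay above and KO3 below WT, with footprint changes of 0.40 ± 0.071 in KO1 (adjusted p = 1.72e-05) and -0.40 ± 0.068 in KO3 (adjusted p = 7.42e-06) by edgeR. Mcm5 had a Ribo-seq CPM of 209.6 and 193 in WT, 263 and 266 in KO1, 234 and 226 in KO2 and, in KO3, 267 and 232. Every clone library was above WT, and its footprint change was 0.38 (KO1), 0.20 (KO2) and 0.30 (KO3). This change was called in KO1 and KO3 and not in KO2 (adjusted p = 0.0812 by edgeR). Rfc3 footprints rose by 0.80 ± 0.085 in KO1 (adjusted p = 1.47e-10) and 0.37 ± 0.081 in KO3 (adjusted p = 0.000391) by edgeR. Cenpf footprints rose in KO1 (0.52) and KO2 (0.35) and fell in KO3 (-0.25), where RNA was not called. Mki67 footprints, with -0.22 (KO1), 0.071 (KO2) and 0.24 (KO3), were called in no clone.

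**Figure D5:**
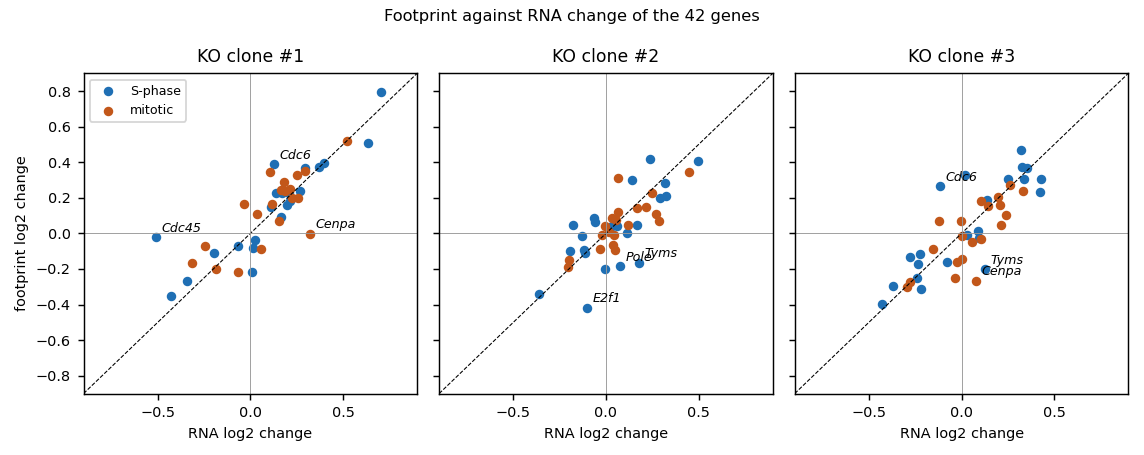
Footprint log2 change (vertical axis) against RNA log2 change (horizontal axis) of the 42 genes in each clone (blue, S-phase; orange, mitotic; dashed line, equal changes, where TE does not change). The genes lie along the line (r = 0.853, 0.741 and 0.803), and the 3 with the largest TE change in each clone are named.

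TE of the 42 genes was not detectably changed. By edgeR's test of the interaction of line and assay, 0 of 42 were called in KO1, KO2 or KO3, for the mean of the clones, or for a difference among them, where 0.0942%, 0.0173%, 0.104%, 0% and 1.03% of all genes were called. Before adjustment, p was under 0.05 for 3, 1, 4, 2 and 3 of the 42. DESeq2 also called 0. The median SE of a TE change was 0.11 in each clone. Median TE changes of S-phase genes were 0.023, -0.0071 and 0.026, and those of mitotic genes 0.06, -0.024 and -0.029, in KO1, KO2 and KO3. With RNA-seq and Ribo-seq of the same lysate as a block, 0 genes were called in each clone. Under this block Mcm7 was called for a difference among the clones (adjusted p = 0.0164 by edgeR, against 0.256 without it), with TE changes of -0.024 (KO1), 0.10 (KO2) and -0.19 (KO3).

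The widest TE change in each clone belonged to an S-phase gene. Cdc45 had a TE change of 0.50 ± 0.17 in KO1 (adjusted p = 0.484) by edgeR, where its RNA fell and was not followed by footprints. Its footprint CPM was 41.3 and 46.3 in WT, 41.9 and 46.9 in KO1, 52.7 and 53.9 in KO2 and, in KO3, 38.8 and 41, and KO1 overlapped WT. Tyms had -0.35 ± 0.14 in KO2 (adjusted p = 1) and Cdc6 0.39 ± 0.13 in KO3 (adjusted p = 0.48) by edgeR. In both genes the sign was the same in the 3 clones, with -0.22 (KO1), -0.35 (KO2) and -0.32 (KO3) for Tyms and 0.27 (KO1), 0.23 (KO2) and 0.39 (KO3) for Cdc6. Tyms RNA CPM was 49.98 and 46 in WT, 48 and 48.6 in KO1, 49.7 and 58.1 in KO2 and, in KO3, 59.2 and 44.5, and its footprint CPM 80.1 and 84.8 in WT, 71.6 and 69.8 in KO1, 73.5 and 71.9 in KO2 and, in KO3, 72.9 and 70.3. For Cdc6 the RNA CPM was 61.4 and 58.3 in WT, 68.1 and 62.6 in KO1, 55.3 and 49.9 in KO2 and, in KO3, 55.1 and 54.7, and the footprint CPM 73.3 and 69.5 in WT, 97.4 and 86.9 in KO1, 82.5 and 62.9 in KO2 and, in KO3, 84.8 and 88.6. In Tyms every clone footprint library lay below WT, in Cdc6 those of KO1 and KO3 lay above it, and none of these TE changes passed the correction.

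Other genes of these pathways were counted in the same way. Of 50 further replication genes, 15, 6 and 11 were higher and 10, 3 and 15 lower in RNA in KO1, KO2 and KO3, with medians of 0.079, 0.032 and -0.0013. These are 30%, 12% and 22% higher and 20%, 6% and 30% lower, against the shares of all genes given above (22.1%, 11.6% and 23.1% higher, 24.6%, 8.86% and 22.3% lower), and the shares higher in KO2 and KO3 were near them. Of 55 further mitosis genes, 27, 10 and 17 were higher and 8, 3 and 8 lower, with medians of 0.17, 0.039 and 0.05. As shares these are 49.1%, 18.2% and 30.9% higher and 14.5%, 5.45% and 14.5% lower. In footprints, 9, 6 and 8 replication genes were higher and 5, 0 and 12 lower, and 18, 3 and 9 mitosis genes were higher and 7, 3 and 6 lower, against 11.7%, 6.74% and 14.9% of all genes higher and 15.2%, 4.99% and 15.7% lower. Shares higher were 18%, 12% and 16% for replication and 32.7%, 5.45% and 16.4% for mitosis genes, and shares lower 10%, 0% and 24% and 12.7%, 5.45% and 10.9%. For TE, 0 genes of either list were called in any clone by edgeR, with an unadjusted p under 0.05 for 1, 1 and 4 replication genes and 2, 2 and 3 mitosis genes, and DESeq2 also called 0. For a TE difference among the clones, edgeR called 1 mitosis gene, Sgo1 (1.82%), and 0 replication genes, against 1.03% of all genes. The mitosis genes with the largest mean RNA change were Cenpn, of the inner kinetochore, Ckap2l and Nusap1, both of spindle microtubules. Cenpn RNA rose by 0.43 ± 0.13 in KO1 (adjusted p = 0.00656), 0.51 ± 0.14 in KO2 (adjusted p = 0.0104) and 0.50 ± 0.13 in KO3 (adjusted p = 0.001) by edgeR. Its footprint changes of 0.020 (KO1), 0.066 (KO2) and 0.40 (KO3) were not called. Ckap2l rose by 0.36 ± 0.081 in KO1 (adjusted p = 0.000178), 0.28 ± 0.085 in KO2 (adjusted p = 0.0218) and 0.58 ± 0.081 in KO3 (adjusted p = 3.69e-09) by edgeR. Nusap1 rose by 0.65 ± 0.10 in KO1 (adjusted p = 1.95e-07) and 0.50 ± 0.10 in KO3 (adjusted p = 2.16e-05) by edgeR. In KO2 its RNA (-0.18) and footprint (-0.28) changes were below 0 and not called. Footprints of Ckap2l and Nusap1 were called higher in KO1 and KO3. Of the replication genes, Gins3 RNA rose in KO1 (0.61), Mcm8 in KO3 (0.72), and Dtl, of the ligase that degrades Cdt1 in S phase, in KO1 (0.43) and KO2 (0.30). Gins3 footprints were called only in KO2 (0.86 ± 0.25, adjusted p = 0.0197 by edgeR), where its RNA was not called. They were few, with 8 counts in KO1 replicate 2.

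Regulators upstream of these genes moved further than the genes themselves in single cases. Of 32 regulators, 30 were tested. In RNA, 8, 4 and 8 were higher (26.7%, 13.3% and 26.7%) and 10, 4 and 6 lower (33.3%, 13.3% and 20%) in KO1, KO2 and KO3, and most of these shares were near those of all genes. The largest mean changes belonged to inhibitors of CDK4 and CDK6. Cdkn2a, whose locus encodes an inhibitor of these kinases and an activator of p53, had 579 and 608 RNA-seq counts in WT, 825 and 701 in KO1, 605 and 762 in KO2 and, in KO3, 17 and 13. It was near absent in KO3 and not lower in the others, with changes of -5.42 ± 0.18 in KO3 (adjusted p = 2.36e-43) and 0.40 ± 0.083 in KO1 (adjusted p = 7.42e-05) by edgeR. Cdkn2a was the only regulator called for TE by edgeR, in KO3 and for a difference among the clones. Its footprints numbered 18 and 12 in KO3, against 167 and 120 in WT. The TE change of 1.88 ± 0.39 in KO3 (adjusted p = 0.0196) by edgeR rests on these few counts. The call was lost without WT replicate 1 (adjusted p = 0.0593), KO3 replicate 1 (0.412) or KO3 replicate 2 (0.516) by edgeR. Its neighbour Cdkn2b fell in all 3 clones, with changes of -0.51 ± 0.13 in KO1 (adjusted p = 0.000615), -0.56 ± 0.13 in KO2 (adjusted p = 0.00265) and -1.45 ± 0.15 in KO3 (adjusted p = 2.84e-14) by edgeR. Cdkn2c RNA rose by 0.82 ± 0.12 in KO1 (adjusted p = 1.66e-07) and 0.78 ± 0.12 in KO2 (adjusted p = 6.24e-05) by edgeR. Its footprint changes of 0.41 (KO1), 0.081 (KO2) and -0.70 (KO3) were not called. Cdkn2b footprints were called lower in KO1 and KO3 and were not called in KO2.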

How the data were processed

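The authors trimmed adapters (fastp 0.21.0), removed reads of noncoding RNA, aligned the rest to mm10 with GENCODE vM23 (STAR 2.7.0a), and counted A-site positions leaving out 5 codons at each end of a coding sequence. They deposited raw counts for 67139 transcripts, without pooling. The labels name polyA RNA for RNA-seq, whereas the methods describe rRNA depletion. Removal of duplicates by molecular identifiers is not given in the sources used here.

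The transcript with the largest sum was kept for each gene symbol. Counts were tested with edgeR 4.0.16 (R 4.3.3; quasi-likelihood test, filterByExpr, TMM within each assay, Benjamini-Hochberg over all genes tested), for each clone against WT (4 libraries; 8 for TE), and over all lines for the mean of the clones and for a difference among them. DESeq2 1.42.0 was an alternative. Scripts were tested on simulated data. RNA-seq and Ribo-seq replicates share a lysate by the methods, and their deviations correlated (r = 0.312, 0.359, 0.152 and 0.176 in WT, KO1, KO2 and KO3, over 2180 genes with at least 100 counts). TE values need at least 10 counts in each library. Depth limits precision through counting error, most in the Ribo-seq replicate of KO1 with 1138943 counts.

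The members and lists were chosen with earlier results of these data known. Values in every library are given for Mcm2, Ccnb1 and Mki67, for the 3 genes of each class with the largest mean RNA change, for the highest and lowest gene of each class in each clone, and for the largest TE change in each clone. Of the other lists, the 3 genes with the largest mean RNA change (at least 10 counts in every RNA-seq library) and those called for TE are named. Other genes were named to complete each function.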

Additional observations from a re-analysis of the deposited data

Results flagged for a closer look

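A test of the difference itself marked 32 of the 42 genes in RNA and 31 in footprints, where the 3 clones did not have the same change (edgeR, adjusted p under 0.05). Of all genes tested 74.0% and 59.5% were called in the same test, so the share in RNA was near that of all genes. For footprints no share among genes with like counts was computed. The distance between the highest and the lowest RNA log2 change of the 3 clones gives its size. Among S-phase genes it was Mcm2 0.822, Rfc3 0.818, Rrm2 0.791, E2f1 0.738, Mcm3 0.691, Cdc45 0.647, Mcm7 0.617, Rrm1 0.592, Mcm6 0.564, Cdt1 0.407, Pola1 0.39, Gins1 0.379, Ccne1 0.37, Mcm10 0.365, Mcm4 0.342, Pcna 0.337, Ccne2 0.328 and Cdc6 0.306. Among mitotic genes it was Bub1 0.574, Top2a 0.571, Cenpf 0.557, Foxm1 0.544, Plk1 0.451, Mki67 0.398, Ccnb1 0.379, Cdk1 0.345, Kif20a 0.246, Cenpe 0.237, Cdc20 0.221, Tpx2 0.209, Birc5 0.187 and Bub1b 0.173. Mcm2, Rfc3 and Rrm2 were thus the genes on which the clones were farthest apart.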

How the results depend on the processing

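Alternatives were another normalisation, other filters on low counts, all transcripts in the fit, DESeq2, a single fit of all lines, the replicate number or, for TE, the lysate as a block, and leaving out each replicate. Of 25 calls of named genes in RNA, 22 held with DESeq2, and no named change reversed. With DESeq2, footprint calls were 6, 1 and 2 higher in KO1, KO2 and KO3 and 0 and 3 lower in KO2 and KO3, and 0 genes were lower in RNA for the mean of the clones. No source used here says that a replicate number marks a batch or day shared by the lines. Deviations of same-numbered replicates correlated between lines in Ribo-seq (r = 0.16 to 0.248 over the 6 pairs of lines) and less evenly in RNA-seq (-0.064 to 0.461), and with 2 numbers a pairing of the lines is not settled. With the replicate block, 2 genes were lower in footprints in KO1 and 2 in KO2, and for the mean of the clones 7 were higher and 1 lower. With the lysate block, 1 gene differed in TE among the clones, and the TE median of S-phase genes in KO1 was 0.0049. That median was 0.0074 with at least 10 counts in every library (mean of the clones, 0.023), and -0.023 in KO2 with all transcripts. Relative to the chromosome, chosen after the data were seen, the S-phase RNA median in KO3 was -0.0595. Without the 3 chromosomes 2 genes were lower in KO1 and 4 higher in KO2, against 7 and 9 with them. The 19 genes higher in KO1 lie on other chromosomes.

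Leaving out 1 replicate at a time, RNA calls ranged over 5 to 9 higher and 1 to 6 lower in KO2, 9 to 14 and 5 to 8 in KO3, and 5 to 10 and 0 to 2 for the mean. Footprint calls ranged over 9 to 17 higher and 1 to 2 lower in KO1, 2 to 5 and 0 to 1 in KO2, 2 to 9 higher in KO3 and 2 to 6 for the mean. The S-phase footprint median in KO1 was 0.048 to 0.25. S-phase TE medians were -0.015 to 0.061 in KO1, -0.055 to 0.061 in KO2, -0.019 to 0.047 in KO3 and -0.034 to 0.033 for the mean. The cause of these moves was not tested. Where a line kept 1 library, it was assumed to vary like the others.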
